A study of Mus musculus with 6 samples.

Results

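This account covers the Peli1 gene and its upstream region in mouse macrophages: every deposited p300, PU.1 and H3K4me1 peak between 20890000 and 21070000 on chromosome 11 (mouse build mm9), a window of 180 kb, and the reads of all 8 libraries in those peaks. The selection rule places the gene near 20991000 to 21050500, and RefSeq (GRCm38) gives it on the forward strand. Distances below are measured from 20991000. Positions are printed as the deposited lists give them. The window held 11 of the 19879 p300 sites of chromosomes 1 to 19 and X (peaks of both conditions merged), 20 of 87958 PU.1 sites and 18 of 84743 H3K4me1 peaks. The members were chosen by position and by the authors' peak calls, which rest on the reads of these same libraries, and the window was proposed with results of these data known. The values below therefore describe the locus and are not an independent test of it.

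Peli1 encodes Pellino E3 ubiquitin protein ligase 1, an enzyme that attaches ubiquitin chains to signalling proteins downstream of Toll-like receptors, among them IRAK and RIP kinases, and the gene is itself known as an LPS-responsive gene in macrophages. p300 is a histone acetyltransferase that transcription factors recruit to active enhancers and promoters. PU.1 is the ETS-family transcription factor required for macrophage identity, and it binds DNA at sites with a GGAA core. Mono-methylation of histone H3 at lysine 4 (H3K4me1) marks enhancers, whether active or poised.

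Chromatin immunoprecipitation with sequencing was performed on primary macrophages grown from the bone marrow of female Fvb mice and taken at day 7 of differentiation in medium conditioned by L929 cells. No allele or transgene was named for these mice. The groups were untreated cells and cells stimulated for 2 h with 10 ng/ml lipopolysaccharide (LPS), a component of the bacterial outer membrane that Toll-like receptor 4 senses. p300 had 2 libraries per condition, labelled as biological replicates, PU.1 had 1 library per condition, and H3K4me1 and input DNA (chromatin sequenced without precipitation) had 1 library each from untreated cells. No transcript was measured, so the labelled cell type was not checked against marker genes and Peli1 expression is not known here.

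Libraries held 5744811 to 7828655 aligned reads, of which 5503587 to 6428281 remained after keeping 1 read per position and strand on chromosomes 1 to 19 and X. Enrichment varied between p300 replicates. Of the reads in the window, the 11 p300 sites took 9.67% in untreated replicate 1, 18.5% in untreated replicate 2, 26.4% in LPS replicate 1 and 46.4% in LPS replicate 2, against 8.57% in input. The header of the untreated PU.1 peak list names LPS. Peaks of that list alone held 205568 untreated and 112879 LPS reads genome-wide, and peaks of the LPS list alone held 99883 and 209138, so the sample labels were followed for both lists.

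One sequence of the locus could be shown, the promoter of Peli1, because a p300 site and a PU.1 site lay over the gene start. The stretch is chr11:21091074-21091373 of GRCm38 (forward strand), from RefSeq, running from 250 bases before to 50 bases after the start, and Peli1 matched 1 entry of that table. The files are on mm9, so no peak position is transferred onto these bases. Capitals mark the ETS core GGAA and the GC box GGGCGG on either strand (TTCC and CCGCCC on the printed strand).
Peli1 promoter: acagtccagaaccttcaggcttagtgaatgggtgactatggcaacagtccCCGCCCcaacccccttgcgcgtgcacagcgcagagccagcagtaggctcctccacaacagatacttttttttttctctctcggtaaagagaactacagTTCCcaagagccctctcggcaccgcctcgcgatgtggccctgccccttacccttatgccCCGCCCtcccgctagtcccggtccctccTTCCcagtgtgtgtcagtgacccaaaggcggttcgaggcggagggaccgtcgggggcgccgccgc
The 300 bases were 61.7% G or C and held 20 CG pairs, against a median of 7 over 32544 mouse promoters of that length. GGAA occurred 2 times, beginning at -102 and -15 from the start, and 96.0% of promoters hold it at least 1 time. GGGCGG occurred 2 times, at -200 and -43, and 35.9% of promoters hold it. No match was found on either strand for the longer PU.1 forms GAGGAAG and AGGAAGT (13.4% and 9.27% of promoters), the AP-1 site TGANTCA (7.79%), the cyclic AMP element TGACGTCA (1.80%), the TATA box TATAAA (13.6%) or CCAAT (37.4%). The NF-kB consensus, its p65 form and the interferon-response core, searched on both strands, had no match either (0.415%, 1.61% and 3.45% of promoters). These matches describe letters and say nothing about binding.

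The deposited p300 peaks of the window came almost wholly from the LPS list and lay mostly upstream of Peli1. The LPS list held 11 peaks in the window and the untreated list 1. Of the 11 sites, 9 lay upstream of the gene, 1 over its start and 1 beyond its end, and none lay inside the gene further than its start. The neighbouring protein-coding genes in RefSeq order (GRCm38) are Lgalsl before and Vps54 after Peli1, with 4 non-coding genes between Lgalsl and Peli1. The authors' scores (10 times the -log10 p-value of the peak caller) ran from 50.77 to 1396.32 in the LPS list, and the untreated peak scored 60.38. The nearest LPS p300 peaks outside the window lay 22.3 kb below its lower edge (score 57.6) and 53.5 kb above its upper edge (141.5), and the outermost inside lay 23.0 kb and 9.66 kb from those edges (50.77 and 61.23).

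Against input (both replicates together, scaled to distinct reads), the exact 95% interval of the p300 ratio lay above 1 at 0 of the 11 sites before LPS and at 10 after it. The same shares over all p300 sites were not computed, so nothing is read from the 0 or the 10. The 0 before LPS includes the site 66.3 kb upstream, which has an untreated p300 peak. Its ratio of 5.89 (0.871 to 252) rests on 12 untreated reads against 1 input read. Normalised p300 reads (distinct reads divided by a library factor, the median of ratios over all p300 sites) were higher on average after LPS at all 11 sites. The factors were 0.538 and 1.76 for untreated replicates 1 and 2, and 0.690 and 1.53 for LPS replicates 1 and 2. The fitted log2 fold change was above 0 at 11 of 11, against 50% of all 19727 sites tested, with a median of 2.01 in the window and 0.00 over all sites. Of the 11, 10 were in the LPS peak list alone, against 38.1% of all sites, so their direction was largely set by how they entered, and nothing is read from these counts or those that follow. Both LPS libraries exceeded both untreated libraries at 8 of the 11 sites, against 27% of all sites. By limma voom across all sites with Benjamini-Hochberg adjustment at 0.05, 3 of the 11 were called higher and 0 lower, where 1.97% of all sites were called higher and 0.213% lower. With total reads, or reads in peak-free bins, as library size, 0 of the 11 were called. The folds of the 3 sites stayed about as large: their log2 values with total reads were 3.21, 2.33 and 3.004 at 76.0, 56.7 and 44.4 kb, with SEs of 1.45, 1.52 and 1.65. The window's 11 LPS p300 peaks put it at percentile 99.9 of 14670 consecutive stretches of 180 kb along the genome, whose median was 0 peaks. Among those stretches, 12 held at least 3 sites called higher and 14359 held none.

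**Figure D1:**
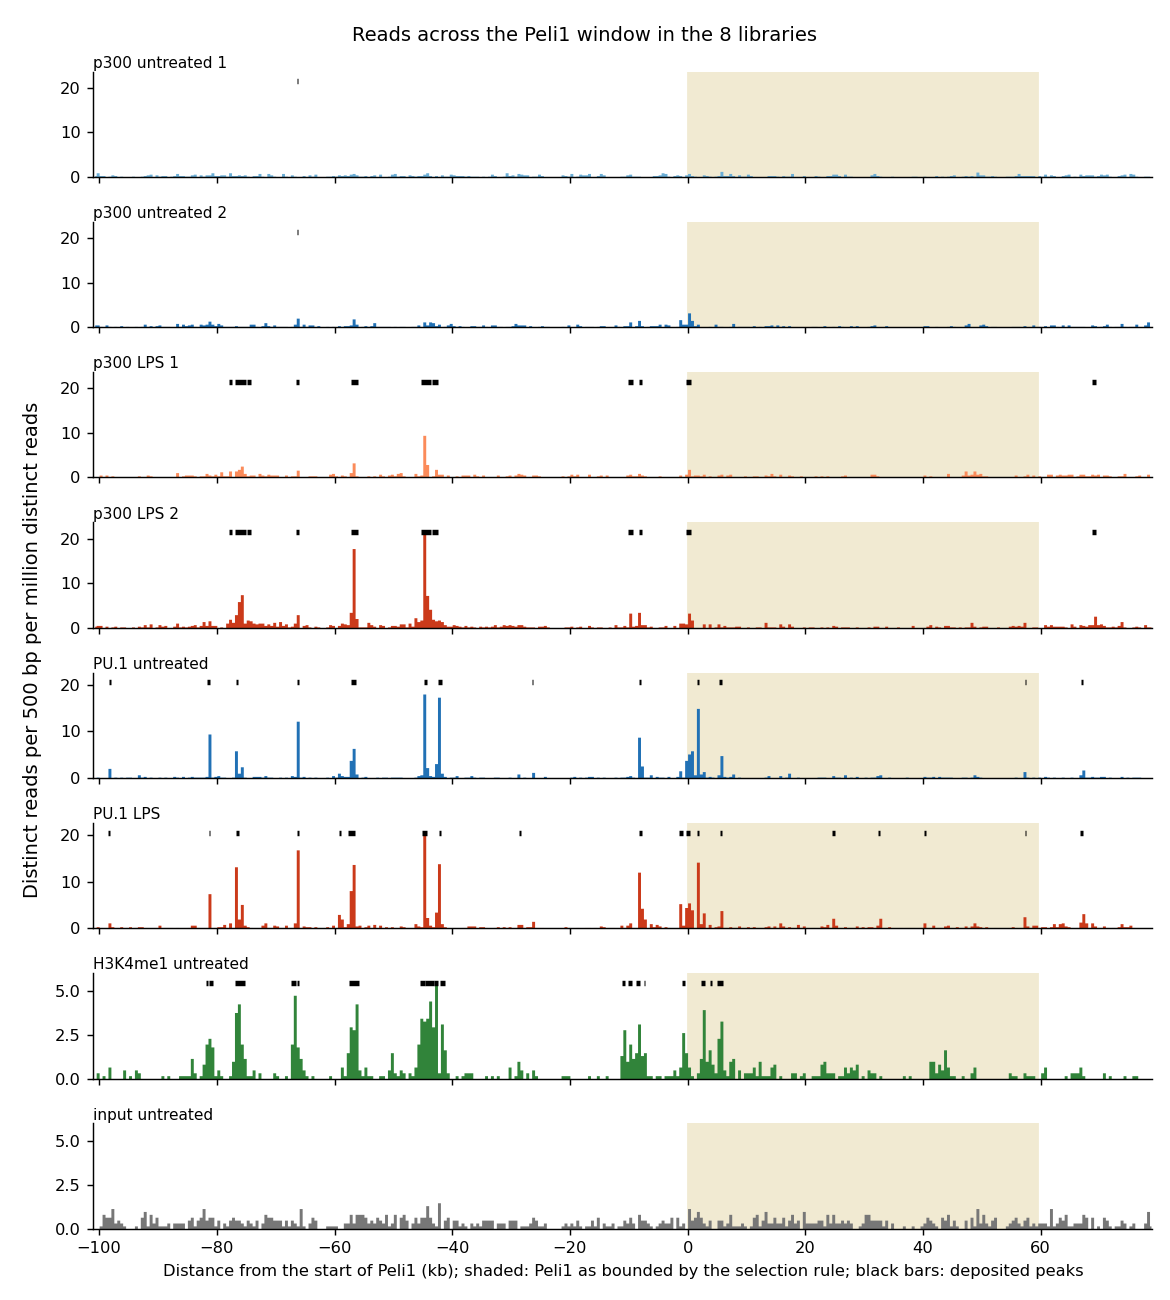
Distinct reads per 500 bp and per 1000000 distinct reads of the library (y axes, shared within p300, within PU.1 and within H3K4me1 and input) against distance from the start of Peli1 in kb. Black bars are deposited peaks, and the p300 lists are pooled over replicates, so both libraries of a condition carry the same bars. The highest p300 signal of the LPS libraries lies upstream of the gene, at 3 places 44.4, 56.7 and 76.0 kb from its start.

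The 3 called sites lay 76.0, 56.7 and 44.4 kb upstream of the gene start and together spanned 33.3 kb. They held 72.0% of all LPS p300 reads in the 11 sites and 43.2% of the untreated ones. Their authors' scores of 652.57, 992.88 and 1396.32 ranked 272, 104 and 42 among the 12237 peaks of the LPS list.

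The site 44.4 kb upstream (20945758 to 20947419, 1661 bp wide) was the strongest of the locus. Its normalised p300 reads were 26.0 and 9.68 in untreated replicates 1 and 2 and 100.0 and 129.7 in LPS replicates 1 and 2, from 14, 17, 69 and 199 distinct reads. The lower LPS library thus stood well above the higher untreated one. The means were 17.9 ± 11.6 and 114.9 ± 21.0 (SD, n = 2 each), and limma voom gave a log2 fold change of 2.92 ± 0.58 (SE) with a Benjamini-Hochberg adjusted p of 0.000314. Within replicate numbers the LPS to untreated ratio was 3.84 for replicate 1 and 13.4 for replicate 2. Against input, p300 reads of both replicates together were 0.894 times input before LPS (exact 95% interval 0.480 to 1.72) and 8.44 times after it (5.18 to 14.7), so no enrichment over input was detectable here before LPS at this depth.

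The site 76.0 kb upstream (20914105 to 20915918, 1813 bp, the widest of the 11) had the largest fitted change. Normalised p300 reads were 16.7 and 2.85 in the untreated libraries and 53.6 and 64.5 in the LPS libraries, from 9, 5, 37 and 99 distinct reads. The libraries of the conditions did not overlap, but the untreated replicates themselves differed widely. The means were 9.79 ± 9.82 and 59.1 ± 7.73 (SD, n = 2 each), a fold of 6.03, below the 6.43 of the means at 44.4 kb. On weighted log values, limma voom gave a larger fold, 3.75 ± 0.61 (log2, SE), with an adjusted p of 3e-06. This fold leans on untreated replicate 2: the ratio was 3.20 for replicate 1 and 22.7 for replicate 2, and the log2 fold change fell to 1.73 when untreated replicate 2 was left out (limma voom adjusted p = 0.0721).

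The site 56.7 kb upstream (20933771 to 20934926) had normalised p300 reads of 16.7 and 9.11 before LPS and 36.2 and 86.1 after it, from 9, 16, 25 and 132 distinct reads. Here the LPS replicates were the ones that differed most. The means were 12.9 ± 5.40 and 61.1 ± 35.2 (SD, n = 2 each), and limma voom gave 2.22 ± 0.56 (log2, SE) with an adjusted p of 0.00961.

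The calls also depended on which libraries entered. Each omission left 1 condition with 1 library, assumed to vary like the others. Without untreated replicate 2 only the site 44.4 kb upstream was called, and without LPS replicate 1 or LPS replicate 2 only the site 76.0 kb upstream. At 44.4 kb the fold held without LPS replicate 1 or 2 (log2 3.14 and 2.63) while its SE rose from 0.58 to 1.02 and 0.88. Without untreated replicate 1 all 3 were called. The 3 log2 fold changes stayed between 1.60 and 4.24 over these omissions.

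The remaining 8 p300 sites held fewer LPS reads and were not called. Near the called sites lay 3 flanking sites. At 77.7 kb (20913029 to 20913505) normalised reads were 11.2 and 0.569 before and 11.6 and 7.17 after LPS, so the conditions overlapped. The fold of its means was only 1.60. Its fitted log2 fold change was 2.51 ± 0.85 (SE) with all libraries and -0.45 without untreated replicate 2. With repeated reads kept it was called (log2 2.88, limma voom adjusted p = 0.0423). At 74.6 kb (20916086 to 20916761) the values were 1.86 and 2.28 before and 7.24 and 11.7 after, with a log2 fold change of 2.01 ± 0.93 (SE). At 43.0 kb (20947514 to 20948575) they were 3.72 and 4.55 before and 18.8 and 13.7 after, with 1.76 ± 0.68 (SE). At these last 2 sites the LPS libraries lay above the untreated ones.

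The site 66.3 kb upstream (20924491 to 20924895) was the only one with a p300 peak in both lists. It had 0 and 6.83 normalised reads before LPS and 13.0 and 11.1 after it, from 0, 12, 9 and 17 distinct reads. All 12 untreated reads came from replicate 2. Its log2 fold change was 1.54 ± 0.94 (SE), and its ratio within replicate 2 was 1.62.

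Between these sites and the gene start lay 2 more. At 9.7 kb upstream (20980935 to 20981678) normalised reads were 9.30 and 3.98 before and 8.69 and 13.7 after LPS, which overlap. At 8.0 kb (20982669 to 20983326) they were 1.86 and 5.69 before and 11.6 and 15.0 after, which do not. The log2 fold changes were 1.28 ± 0.63 and 1.44 ± 0.74 (SE). The site beyond the gene, 69.1 kb from its start (21059782 to 21060341), had 3.72 and 0.569 before and 8.69 and 8.48 after, a log2 fold change of 2.66 ± 1.07 (SE) that rests on 3 untreated reads.

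The site over the gene start (20990743 to 20991619) had the smallest change of the 11. Its normalised p300 reads were 16.7 and 13.1 in untreated and 21.7 and 15.6 in LPS libraries, from 9, 23, 15 and 24 distinct reads, and the conditions overlapped. The means were 14.9 ± 2.58 and 18.7 ± 4.30 (SD, n = 2 each), with a log2 fold change of 0.34 ± 0.53 (SE). It held 32 untreated reads over 876 bp, against 31 over 1661 bp at the site 44.4 kb upstream. Neither site had an untreated p300 peak. Against input its ratio was 1.96 (exact 95% interval 0.885 to 4.93) before and 2.61 (1.20 to 6.47) after LPS. Whether this site and the called upstream sites changed by different amounts was not tested.

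**Figure D2:**
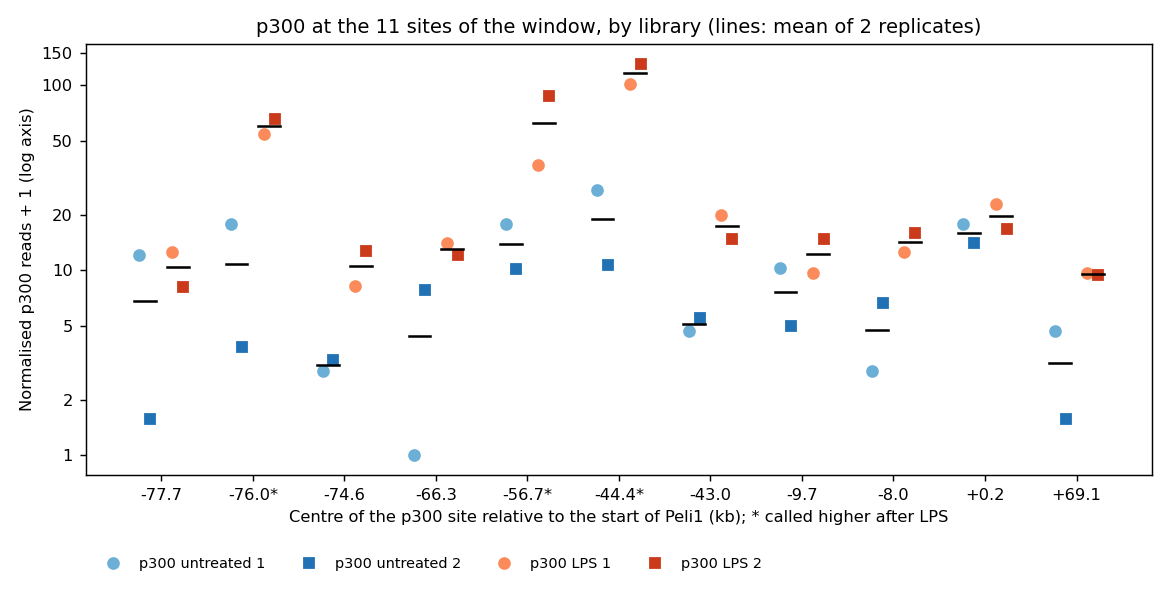
Normalised p300 reads plus 1 (log axis) at the 11 p300 sites, ordered by distance from the start of Peli1 in kb. Circles are replicate 1, squares replicate 2, blue untreated and red LPS, and lines are means of 2. The LPS points of the sites at 76.0, 56.7 and 44.4 kb upstream lie between 36.2 and 129.7 normalised reads, above all other points of the plot.

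PU.1 was present at the locus before LPS. The untreated list held 13 PU.1 peaks in the window and the LPS list 19, merging into 20 sites: 12 in both lists, 7 in the LPS list alone and 1 in the untreated list alone. Over all chromosomes, 15146 of 74365 LPS peaks and 14147 of 73500 untreated peaks were in their own list alone. Of the 20, 12 lay upstream, 6 inside the gene, 1 over its start and 1 beyond its end. With 1 library per condition, ratios carry exact 95% intervals for counting error only and compare libraries, not conditions. The scaling factor between the PU.1 libraries was 1, so ratios are plain read ratios.

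No PU.1 site had an interval wholly beyond 2-fold: 0 of the 11 sites with at least 40 reads, where 0.564% of such sites genome-wide lay beyond it upwards and 0.0536% downwards. The interval lay above 1 at 7 of the 20 sites and below 1 at 0. Over all 87958 PU.1 sites, 7.94% lay above 1 and 7.03% below. Of the 11 sites with at least 40 reads, 5 lay above 1, where 7.92% of such sites did genome-wide. Of the 7 sites above 1, 4 lay at p300 sites and were in both lists. The others were in the LPS list alone, so their direction was partly set by how they entered. Nothing is read from these counts.

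At the called p300 sites PU.1 reads differed in how far they moved. The PU.1 site 76.5 kb upstream (20914194 to 20914727) went from 34 to 90 reads, a ratio of 2.65 (1.77 to 4.05). The one 57.0 kb upstream (20933331 to 20934643) went from 62 to 135, a ratio of 2.18 (1.60 to 2.99). The PU.1 site with the most reads in the window, 44.6 kb upstream (20945946 to 20946773), went from 118 to 141, a ratio of 1.19 (0.929 to 1.54). The p300 site with the most reads thus lay on a PU.1 site whose reads did not differ between the libraries beyond counting error.

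At the p300 sites that were not called, PU.1 went from 72 to 103 reads 66.2 kb upstream (ratio 1.43, 1.05 to 1.96) and from 66 to 97 at 8.0 kb (1.47, 1.06 to 2.04). Over the gene start (20990688 to 20991416) it went from 51 to 60 (1.18, 0.796 to 1.74). A PU.1 peak was listed there after LPS only, with a score of 59.59, although the untreated library held nearly as many reads.

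PU.1 also bound away from p300. Over all chromosomes there were 87958 PU.1 sites and only 19879 p300 sites, of which 9970 met an LPS PU.1 peak. Most PU.1 sites thus lack p300 genome-wide as well, and the count here is a description only. Of the 20 PU.1 sites of the window, 14 met no p300 site. Strong ones among them had ratios that did not differ from 1 beyond counting error: 107 and 89 reads at 42.1 kb upstream (20948634 to 20949233, ratio 0.832, 0.621 to 1.11), 86 and 85 at 1.8 kb inside the gene (20992581 to 20992999, 0.988, 0.724 to 1.35), and 55 and 45 at 81.3 kb upstream (20909413 to 20909899, 0.818, 0.539 to 1.24). The ratios with intervals above 1 in this class were at weak sites of the LPS list alone. They were 8 and 29 reads at 59.0 kb upstream (3.63, 1.62 to 9.18), 9 and 35 at 1.1 kb upstream (3.89, 1.83 to 9.20), and 3 and 17 at 24.9 kb inside the gene (5.67, 1.64 to 30.2).

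**Figure D3:**
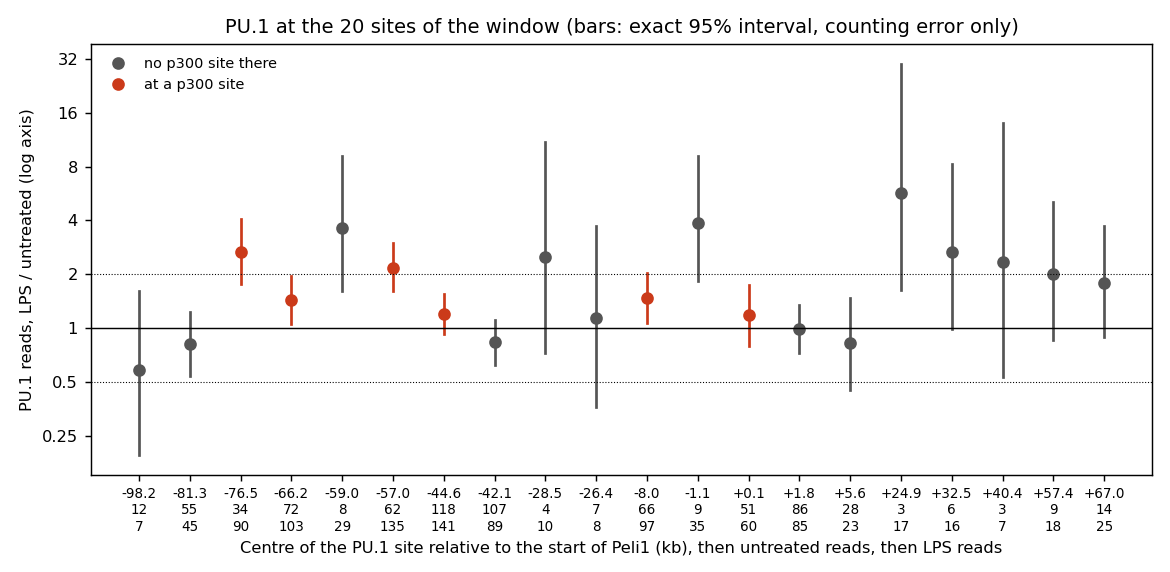
PU.1 reads after LPS divided by untreated reads (log axis) at the 20 PU.1 sites ordered by distance from the start of Peli1 in kb, with the untreated and then the LPS read count under each position. Bars are exact 95% intervals, red marks sites that overlap a p300 site, and dotted lines are 2-fold. The sites at 76.5 and 57.0 kb upstream have ratios of 2.65 and 2.18, and that at 44.6 kb a ratio of 1.19.

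The log2 change of p300 and that of PU.1 (0.5 reads added) had a Pearson's r of 0.335 and a Spearman's rho of 0.445 across the 11 p300 sites, given as a description. The points share libraries and neighbouring DNA, and several rest on few PU.1 reads. Outside all peaks, reads in the window also differed between libraries: the density per kb and per 1000000 distinct reads was 0.282 and 0.461 for untreated and LPS PU.1, 0.474 and 0.425 for untreated p300 replicates 1 and 2, 0.580 and 0.619 for LPS p300 replicates 1 and 2, and 0.665 for input. The part of this background in the values at the sites was not tested. Genome-wide, bins without p300 or PU.1 peaks took 21.3% of untreated and 23.2% of LPS PU.1 reads.

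H3K4me1 peaks of untreated cells met 7 of the 11 p300 sites and 9 of the 20 PU.1 sites. The 18 peaks covered 14.0 kb of the window, 15 upstream and 3 inside the gene. Together they held 542 H3K4me1 and 89 input reads, a ratio of 6.05 scaled to total reads (exact 95% interval 4.82 to 7.65) and of 26.4 (21.1 to 33.4) scaled to reads in 10 kb bins without peaks. The peaks were called against this input, so the ratio describes them. The interval lay above 1 at 17 of the 18 peaks. The highest authors' score, 327.39, belonged to the peak 76.1 kb upstream (20914130 to 20915727), with 65 H3K4me1 and 9 input reads. Next came 291.35 at 67.0 kb (20923558 to 20924447, 41 and 2 reads) and 224.27 at 42.7 kb (20947920 to 20948594, 38 and 2 reads). The peak nearest the gene start, 0.7 kb upstream (20990041 to 20990555), had 17 and 2 reads and scored 78.81.

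All 3 called p300 sites had both a PU.1 peak and an H3K4me1 peak in untreated cells. Over the 11 sites, 5 overlapped an untreated PU.1 peak, 6 an LPS PU.1 peak and 7 an H3K4me1 peak. Over all 19879 p300 sites these overlaps were 48.5%, 50.2% and 48.0%, and among the 7568 sites of the LPS list alone, which 10 of the 11 are, they were 30.4%, 35.7% and 33.1%. All 5 sites with untreated PU.1 also met an H3K4me1 peak. The share of sites with both marks was not computed over all p300 sites, so nothing is read from the 3 or the 5. The 3 called sites were also the widest of the 11, at 1155 to 1813 bp. The 4 sites with neither peak listed before LPS were those at 77.7 and 74.6 kb upstream, over the gene start and beyond the gene. The one over the gene start still held 53 untreated PU.1 reads against 8 input reads. The others held 0, 0 and 1 untreated PU.1 reads.

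Within the called sites, p300 and PU.1 maxima (centre of the 100 bp with the most reads) did not always coincide. At 44.4 kb upstream the p300 maximum after LPS (84 reads in 100 bp) lay 25.5 bp from the LPS and 5.5 bp from the untreated PU.1 maximum, and the maxima of the LPS p300 replicates lay 27 bp apart. At 56.7 kb the distance to the LPS PU.1 maximum was 99.5 bp, and the p300 replicates agreed to 2 bp. At 76.0 kb the p300 maximum lay 552 bp from the LPS PU.1 maximum, and the p300 replicates placed it 114.5 bp apart.

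In 200 bp steps from the lower end of the site 76.0 kb upstream, the step at 200 bp held 78 LPS PU.1 and 19 LPS p300 reads, and the step at 800 bp held 17 and 47. In untreated cells these steps held 30 and 9 PU.1 reads. Most PU.1 and most p300 thus lay in different parts of the site, each with fewer reads of the other. At 44.4 kb both peaked in the step at 600 bp, with 103 LPS PU.1 and 130 LPS p300 reads. H3K4me1 had 1 read in that step and 10 and 12 in the steps on either side. Such a dip was not seen at the PU.1 maximum of the site 76.0 kb upstream, where the step at 200 bp held 17 H3K4me1 reads, the most of that site.

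**Figure D4:**
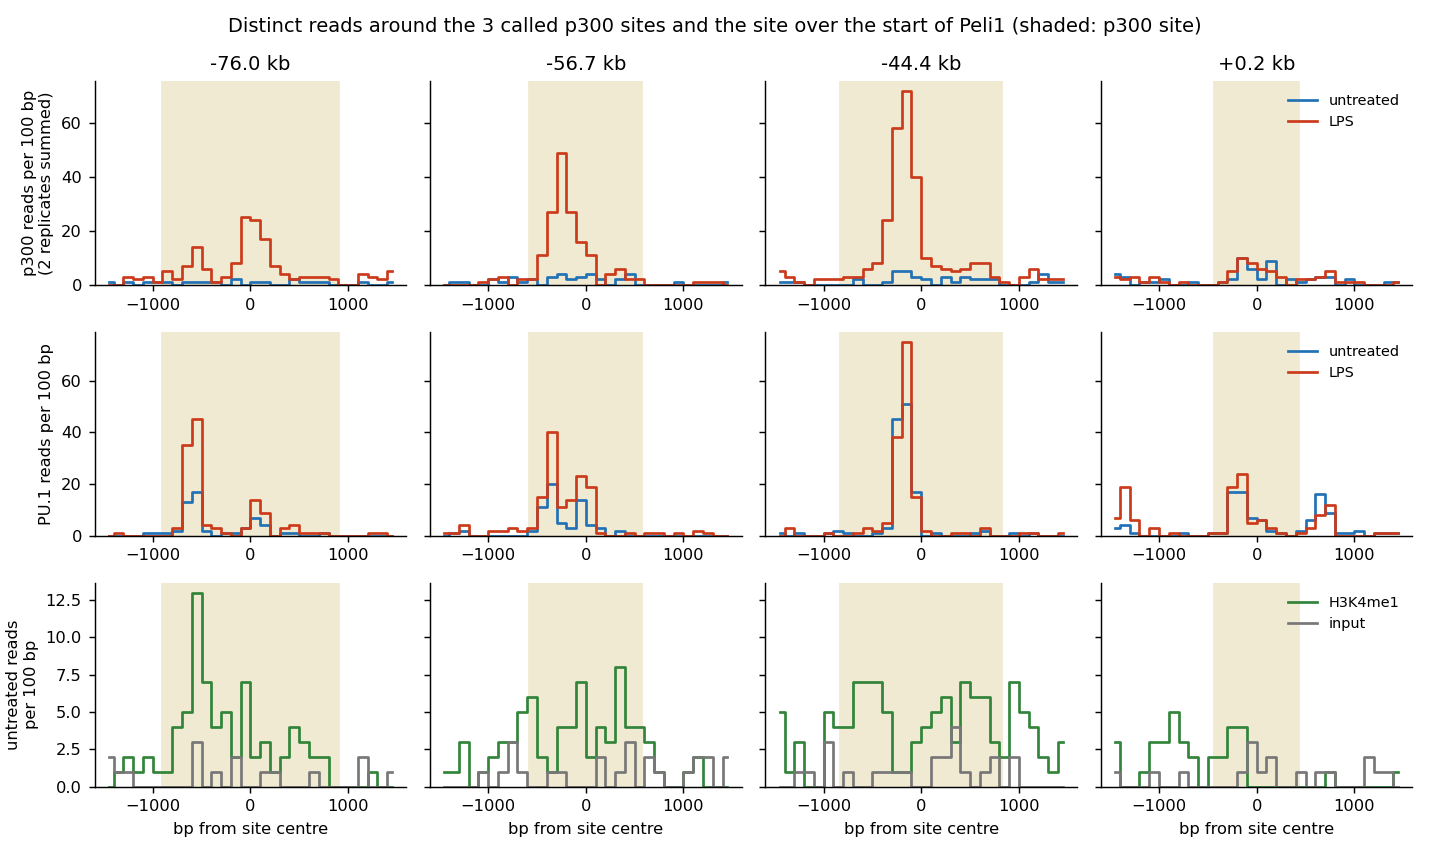
Distinct reads per 100 bp within 1500 bp of the centre of the 3 called p300 sites and of the site over the gene start: p300 (top, replicates summed), PU.1 (middle), H3K4me1 and input of untreated cells (bottom), with the p300 site shaded. At 44.4 kb upstream p300 and PU.1 peak together over few H3K4me1 reads, at 76.0 kb the p300 maximum lies 552 bp from the PU.1 maximum, and over the gene start the p300 lines of the conditions overlap.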

How the data were processed

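Aligned reads (36 bp) and peak lists on mm9, per the submitters' processing notes, were used as deposited. The deposited peak score is 10 times the -log10 p-value of MACS, as the authors' column description states. Controls, per the file headers, were libraries called naked for p300, random for PU.1 and input for H3K4me1. p300 peaks came from both replicates merged, per the labels' design text. The aligner was not given in the sources used here.

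One read per position and strand was kept, 5' ends were moved 100 bp downstream, and reads were counted in merged peaks. p300 sites with at least 10 reads (19727) entered limma voom with a treatment term, using limma 3.58.1 under R 4.3.3. Moderation shrank every site to the same variance, and a site's SE and p hence ignore how far its own replicates differ. Ratios carry exact 95% intervals conditional on the sum. Overlap means at least 1 bp. Python 3.11.15, numpy 2.4.6, pandas 2.3.3 and scipy 1.17.1 were used.

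Named sites were all called p300 sites, the 8 p300 sites with most reads, the peaks nearest the gene start, the 5 PU.1 sites with most reads and the 3 H3K4me1 peaks of highest score. The other p300 sites, and PU.1 sites with intervals above 1 or without change, were added after their values were seen. The window and these lists were chosen with earlier results of these data known. Alternatives are given in the closing section.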

Additional observations from a re-analysis of the deposited data

How the results depend on the processing

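The scaling of p300 libraries bears most on the calls. With total distinct reads or peak-free 10 kb bins as library size, 0 sites were called higher in the window, and genome-wide 0 higher and 0 lower in place of 388 and 42. The smallest adjusted p was then 0.581 and 0.616, with 1498 and 1449 sites at unadjusted p under 0.05, while the all-site median log2 change became 0.20 and 0.16. The log2 folds of the 3 called sites were then 3.21 and 3.23 at 76.0 kb, 2.33 and 2.32 at 56.7 kb and 3.004 and 2.999 at 44.4 kb, with larger SEs. Leaving out 1 library in turn gave 1 to 3 window sites called higher, 13 to 485 higher genome-wide and 0 to 302 lower. The site 77.7 kb upstream ranged from -0.45 (without untreated replicate 2) to 3.37 when 1 library was left out. The other alternatives kept the direction of every window p300 site they could fit. With all reads kept 4 window sites were called higher, the added one 77.7 kb upstream, and 76 sites were called lower genome-wide, and with at least 40 reads 151.

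No source says that the replicate numbers mark a shared culture or day, and the main fit did not pair libraries by them. Libraries of the same number were alike in repeated reads. These made up 3.02% and 4.03% of untreated and LPS p300 replicate 1, and 22.0% and 25.8% of replicate 2. With the replicate number as a block, 3 window sites were called higher, and 898 higher and 396 lower genome-wide. Deviations of same-numbered libraries correlated at 0.304 over 16554 sites.

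PU.1 sites beyond 2-fold numbered 2 with all reads kept (76.5 and 1.1 kb upstream) and 1 with a 50 bp shift (24.9 kb inside the gene). With all reads kept 8 intervals lay above 1, and that at 42.1 kb upstream lay below it (ratio 0.753, 0.591 to 0.957). The H3K4me1 ratio became 26.4 with peak-free bins as scale. With scores of at least 100 the window kept 0 untreated and 4 LPS p300 peaks, 11 LPS PU.1 peaks and 10 H3K4me1 peaks. Of those 4 p300 sites, 3 met an H3K4me1 peak and 4 an untreated PU.1 peak. The low read number at weak sites limits what could be seen there, and a missing call is no evidence of equal levels.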
